A study of Papio with 24 samples.

Results

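Collagen genes were followed across 3 fat depots and 2 maternal diets in cultured adipose-derived stem cells, the progenitors that can become fat cells. The genes were chosen by name: every probe annotated with 1 symbol was taken if that symbol read COL, digits, A, digits and nothing more. This gave 69 probes for 42 genes, and each gene was represented by its probe with the highest mean over the 24 arrays. A gene was tested if that probe had a detection p under 0.05 on at least 4 arrays, which 26 of the 42 collagen genes met, among 10228 genes tested on the array.

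Collagens are matrix proteins built from 3 chains wound into a helix. Fibrillar collagens form the tensile fibres of connective tissue, and fibril-associated collagens sit on their surface. Network collagens form sheets such as the basement membrane that surrounds each fat cell and each vessel. Multiplexins link basement membranes to the matrix beneath them, and beaded filaments of collagen VI anchor cells to the fibres. In adipose tissue this matrix is laid down by stromal progenitors and remodelled as fat cells enlarge.

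The cells came from 8 baboon (Papio) fetuses collected at gestational day 165 (term is day 184), and each fetus gave omental, subcutaneous abdominal and subcutaneous femoral cells. Control mothers ate ad libitum (fetuses control_9017, control_9087, control_8011 and control_8009), and restricted mothers received a diet cut by 30% through pregnancy (fetuses restricted_9085, restricted_2820, restricted_9075 and restricted_9073). Control_9017 and restricted_9085 were male and the other 6 fetuses were female. All cells were isolated by collagenase digestion and expanded in αMEM containing 10% serum. After a freeze and thaw they were regrown to confluence, and RNA of the replicate wells was pooled. Each of the 6 groups of depot and diet therefore held 4 arrays, 1 for each fetus, and the arrays read cultured cells and not fat tissue. The study set out to ask how maternal nutrient restriction affects these progenitors in each depot.

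Arrays carried human probes, had mean signals of 148 to 211 and detected 13102 to 14994 of 48803 probes. Of 8 adipose-derived stem cell markers 7 were tested, while the THY1 probe was not detected on any array, and CD34 was lower in omental cells (-2.20 ± 0.42 and -3.81 ± 0.29 against abdominal and femoral cells; limma, adjusted p = 0.00692 and 2.98e-07). Of the other stem cell markers LUM was higher in both comparisons (0.71 ± 0.18 and 0.97 ± 0.12), PDGFRB was lower against femoral cells (-0.72 ± 0.11), and NT5E, ENG, PDGFRA and DCN were not called. The fat cell markers PLIN1 and LPL and the endothelial marker CDH5 were also not detected on any array. Of 10 mesothelial markers, those of the lining that covers the omentum, 5 were tested, and MSLN, KRT8, KRT18, ITLN1 and BNC1 were not detected on any array. The summed mesothelial signal ran from 357 to 1120 in omental cells, from 108 to 404 in abdominal cells and from 72.9 to 173 in femoral cells. The abdominal array of restricted_9073 stood apart from the other abdominal arrays in this lining's signal, with a WT1 log2 level of 6.08 where the other 7 lay between 4.68 and 5.46. In bulk RNA, fewer cells of a type and less RNA per cell cannot be told apart.

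Omental cells differed from both subcutaneous depots in a small set of collagen genes that included both chains of the common basement membrane collagen IV. COL4A1 was 1.68-fold and COL4A2 2.15-fold higher in omental than in abdominal cells, and COL18A1 was 3.54-fold higher. COL8A1, a short-chain network collagen, was 2.49-fold lower. Against femoral cells the same 4 genes differed in the same directions, and COL12A1 and COL1A2 were also lower in omental cells. The omental arrays are shared by both comparisons. No collagen gene passed the test between the subcutaneous depots or between the diets.

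By count, 4 of the 26 tested collagen genes differed between omental and abdominal cells (15.4%), 3 higher and 1 lower, where 4.62% of all 16933 tested probes were called, 2.49% higher and 2.13% lower. Against femoral cells 6 of 26 were called (23.1%), 3 higher and 3 lower, where 10.9% of all probes were called, 5.33% higher and 5.6% lower. A call was an adjusted p under 0.05 in limma, a linear model with a spread moderated across probes, with Benjamini-Hochberg adjustment over all tested probes. Signals are normalised log2 values, so a difference of 1 is a doubling, and errors of differences are standard errors. Because each fetus gave all 3 depots, the same model was also fitted with the fetus as a block, which compares depots within fetuses. With that block 10 collagen genes were called against abdominal cells, 5 higher and 5 lower, where 9.62% of all probes were called, 5.07% higher and 4.55% lower. Against femoral cells 10 were called, 6 higher and 4 lower, where 15.6% of all probes were called, 7.54% higher and 8.08% lower. A joint fit of the 24 arrays, with the fetus as a random effect, called 7 and 8 collagen genes (10.2% and 14.4% of all probes). The 8 include COL5A3, whose probe passed the detection filter only through subcutaneous arrays. Over the 26 genes the median difference was -0.02 against abdominal cells and -0.01 against femoral cells, beside 0.00 for all probes in both, so the collagen genes as a whole did not lie to 1 side.

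**Figure D1:**
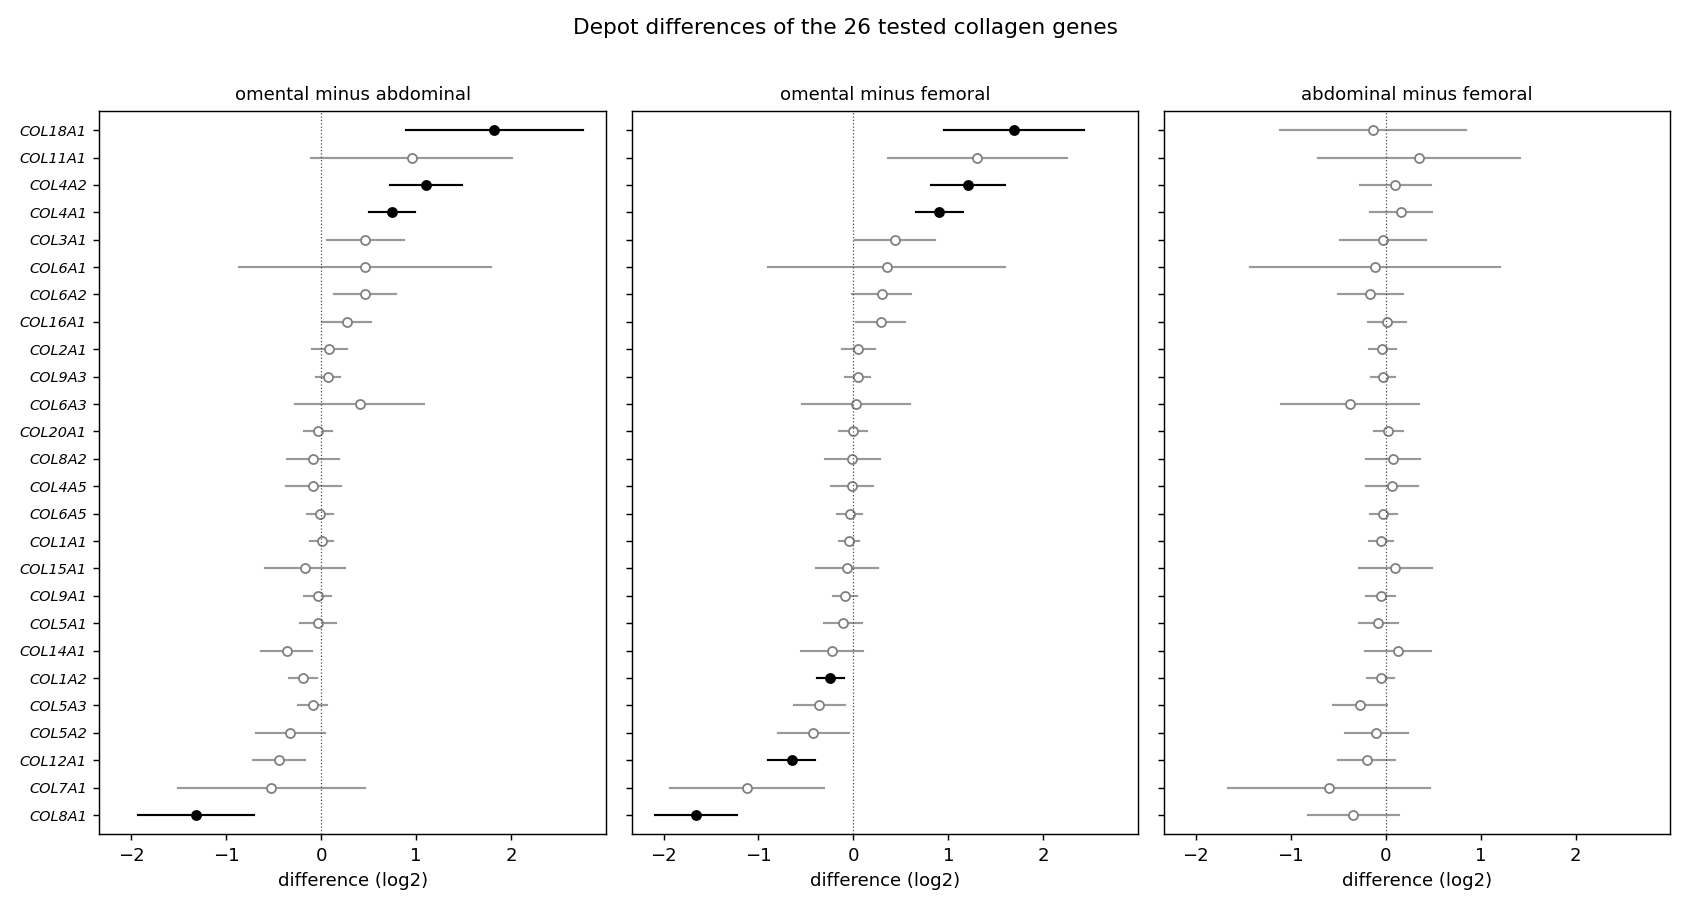
Difference in log2 signal between depots (horizontal axis) for each of the 26 tested collagen genes (rows), with 95% confidence intervals from limma. Filled points are genes with an adjusted p under 0.05. COL18A1, COL4A2 and COL4A1 lie to the right and COL8A1 to the left in both omental comparisons, and no point is filled between abdominal and femoral cells.

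Among basement membrane network genes, 3 of the 6 on the array were tested. COL4A1 encodes a chain of the heterotrimer found in nearly all basement membranes, and COL4A2 encodes the other chain. COL4A1 ranged over log2 14.25 to 14.54 in the 8 omental arrays (median 14.34), over 13.29 to 14.13 in abdominal arrays (median 13.53) and over 12.97 to 13.98 in femoral arrays (median 13.50). Every omental array lay above every abdominal and every femoral array. Of all tested probes, 0.738% separated omental from abdominal arrays and 2.4% separated omental from femoral arrays in this way, and COL4A1 was the only collagen gene that did so against abdominal cells. In limma the COL4A1 difference was 0.75 ± 0.12 against abdominal cells (adjusted p = 0.00164) and 0.91 ± 0.12 against femoral cells (adjusted p = 6.38e-05). It was higher in omental cells of 8 of 8 fetuses in both comparisons, by 0.15 to 1.13 against the abdominal cells of the same fetus and by 0.26 to 1.57 against its femoral cells.

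The omental COL4A1 levels lay close together, with an SD of 0.09 over 8 arrays beside 0.32 in abdominal and 0.33 in femoral cells. They also lay near the top of the log2 scale, which ended at 14.9. On the deposited linear scale the probe read 7657 to 23541, where the brightest probe of an array read 26804 to 36248. Whether the differences are compressed at that brightness was not tested.

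COL4A2 was measured well below that range. Its log2 level ran from 9.98 to 11.29 in omental arrays (median 10.76), from 9.27 to 10.25 in abdominal arrays (median 9.52) and from 9.07 to 10.23 in femoral arrays (median 9.44). The groups overlapped only through the omental array of control_9087, at 9.98, which lay below the highest abdominal arrays and the highest femoral array. The COL4A2 difference was 1.10 ± 0.18 against abdominal cells (limma, adjusted p = 0.00222) and 1.21 ± 0.18 against femoral cells (limma, adjusted p = 0.000298). Within fetuses it was higher in omental cells of 8 of 8, by 0.20 to 1.72 against abdominal cells and by 0.50 to 1.98 against femoral cells. The lowest of the within-fetus abdominal differences of COL4A1 and of COL4A2 both came from restricted_9073, whose abdominal array stood apart. Without that array the differences against abdominal cells were 0.83 ± 0.09 for COL4A1 and 1.21 ± 0.16 for COL4A2. That array held the highest abdominal level of both genes (14.13 and 10.25). The larger differences follow from leaving it out and add no support.

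COL4A5, a chain of a kidney and smooth muscle form of collagen IV, did not move with them. Its log2 level was 5.82 ± 0.24 (SD, n = 8) in omental, 5.91 ± 0.31 in abdominal and 5.84 ± 0.20 in femoral cells. Its difference was -0.08 ± 0.14 against abdominal cells (limma, adjusted p = 0.842). The probes of COL4A3, COL4A4 and COL4A6, chains of specialised membranes such as the kidney filter, were not detected on any array.

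Some mesothelial and smooth muscle markers were also higher in omental cells. WT1, a mesothelial transcription factor, was higher in omental cells by 1.69 ± 0.21 against abdominal cells (limma, adjusted p = 0.000284) and by 1.89 ± 0.16 against femoral cells (adjusted p = 5.78e-07). Of the 5 mesothelial markers tested, 1 was called higher against abdominal cells, or 4 with the fetus as a block, and 4 against femoral cells. The 5th, UPK3B, differed by -0.05 ± 0.07 and -0.07 ± 0.06, not called. The smooth muscle gene CNN1 was higher by 1.26 ± 0.23 and 1.54 ± 0.19 in the 2 comparisons (limma, adjusted p = 0.00506 and 5.02e-05). Of the 9 smooth muscle and pericyte markers tested, 2 were called higher in each comparison. Of all tested probes limma called 2.49% higher and 2.13% lower against abdominal cells, and 5.33% and 5.6% against femoral cells. With the block 5.07% were called higher against abdominal cells. The summed signal of the list overlapped between depots and ran from 50800 to 59600 in omental, from 45000 to 57500 in abdominal and from 48500 to 57700 in femoral cells. The endothelial marker TEK was lower in omental cells, with differences of -2.04 ± 0.21 and -2.38 ± 0.16 (limma, adjusted p = 5.88e-05 and 3.89e-08), and no other of the 6 endothelial markers tested was called. The part of any of these cell types in the collagen differences was not tested.

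**Figure D2:**
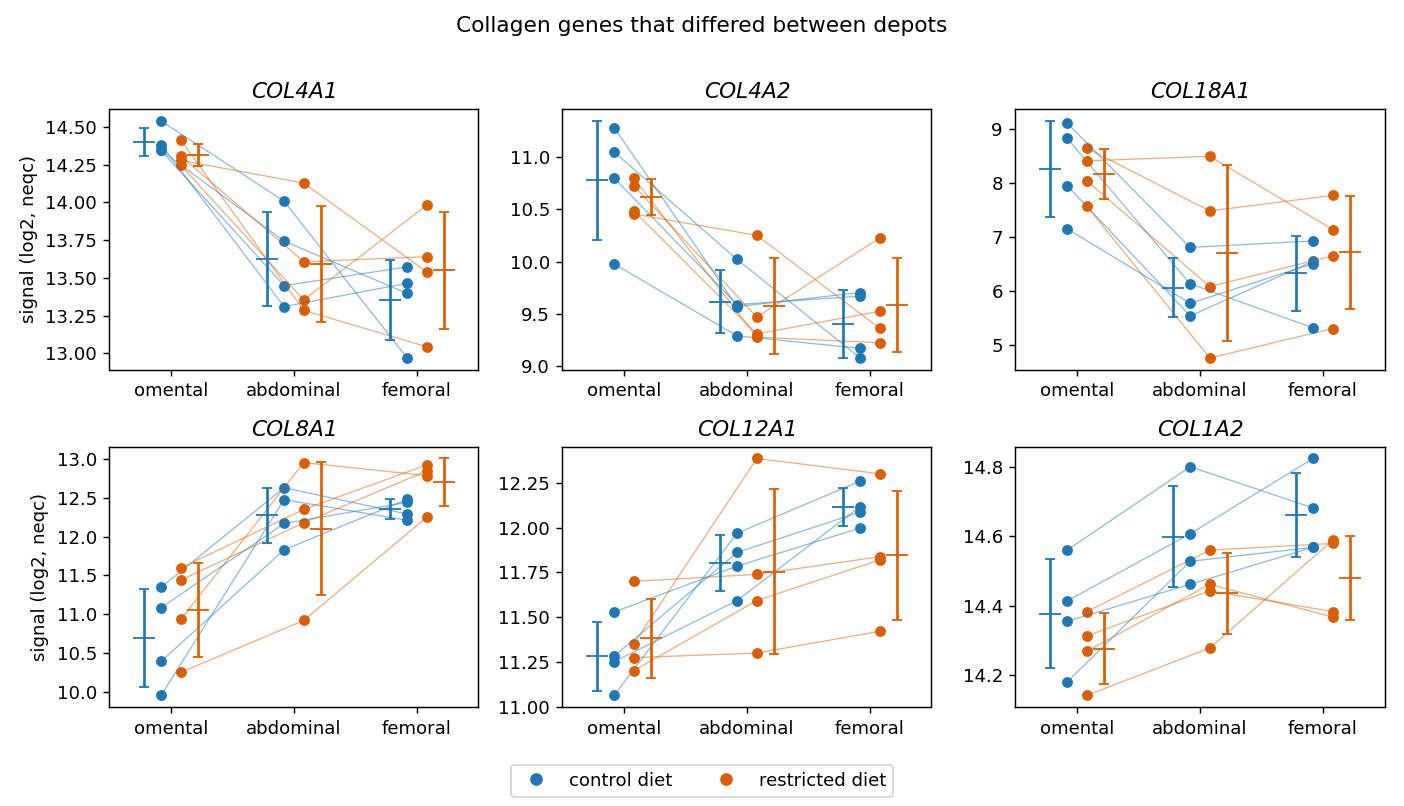
Log2 signal (vertical axes, with a separate range for each gene) of the 6 collagen genes called in a depot comparison, by depot and maternal diet. Points are arrays, lines join the cells of 1 fetus, and bars show the mean and SD of 4 fetuses. COL4A1, COL4A2 and COL18A1 are higher in omental cells, COL8A1, COL12A1 and COL1A2 are lower, and abdominal and femoral cells overlap for all 6.

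COL18A1 and COL15A1 are the multiplexins, basement membrane proteoglycans whose carboxyl ends can be released as endostatin and a related fragment. COL18A1 ranged over log2 7.16 to 9.11 in omental arrays (median 8.23), over 4.77 to 8.49 in abdominal arrays (median 6.11) and over 5.31 to 7.77 in femoral arrays (median 6.60). Omental cells were higher with overlap, and the abdominal array of restricted_9073, at 8.49, lay 1 log2 unit above the next abdominal array at 7.49. The difference was 1.83 ± 0.44 against abdominal cells (limma, adjusted p = 0.025) and 1.69 ± 0.35 against femoral cells (adjusted p = 0.00395). COL18A1 was higher in omental cells of 7 of 8 fetuses against abdominal cells, restricted_9073 being the exception at -0.08, and of 8 of 8 against femoral cells. Without the abdominal array of restricted_9073 the difference was 2.13 ± 0.37 (limma, adjusted p = 0.00233). This rise follows from leaving out the highest abdominal array and adds no support. The call against abdominal cells was lost in limma without control_9017 (adjusted p = 0.0741), control_9087 (0.0519), control_8011 (0.0834) or control_8009 (0.0712). The probe was detected on 7 of 8 abdominal arrays and on 8 of 8 in each other depot. A second COL18A1 probe was not detected on any array, so these differences rest on 1 probe.

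COL15A1, by contrast, had about the same mean level in the 3 depots. Its log2 level was 7.79 ± 0.55 (SD, n = 8) in omental, 7.96 ± 0.53 in abdominal and 7.86 ± 0.26 in femoral cells. The limma difference was -0.17 ± 0.20 against abdominal cells (adjusted p = 0.765) and -0.07 ± 0.16 against femoral cells (adjusted p = 0.875).

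COL8A1 encodes a short-chain collagen that forms open lattices in vessel walls and in the membrane beneath the corneal endothelium. Against femoral cells its difference was close in size to that of COL18A1 and opposite in sign. Its log2 level ran from 9.95 to 11.60 in omental arrays (median 11.01), from 10.92 to 12.96 in abdominal arrays (median 12.27) and from 12.21 to 12.93 in femoral arrays (median 12.46). Every femoral array lay above every omental array, while abdominal and omental arrays overlapped through the abdominal array of restricted_9085 at 10.92. The difference was -1.32 ± 0.29 against abdominal cells (limma, adjusted p = 0.0148) and -1.66 ± 0.20 against femoral cells (adjusted p = 4.35e-05), lower in omental cells of 8 of 8 fetuses in both. Without control_9087 the call against abdominal cells was lost (-1.15, limma, adjusted p = 0.057).

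A second COL8A1 probe gave the same direction, with -1.18 against abdominal cells (limma, adjusted p = 0.0225) and -1.43 against femoral cells (adjusted p = 0.000285). COL8A2, the partner chain that can share a trimer with COL8A1, was not called by its representing probe, with -0.09 ± 0.13 and -0.01 ± 0.14. Its other probe read -0.63 against abdominal cells (limma, adjusted p = 0.304) and -0.79 against femoral cells (adjusted p = 0.0132), so the 2 COL8A2 probes disagree. The probe of COL10A1, the collagen of hypertrophic cartilage, was not detected on any array.

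Of the 11 fibrillar collagen genes on the array, 8 were tested, and 1 was called. Collagen I, the main fibre of connective tissue, was among the brightest probes of these cells: COL1A1 ranked 5 to 39 on an array and COL1A2 ranked 3 to 70. COL1A2 ranged over log2 14.14 to 14.56 in omental arrays (median 14.33), over 14.28 to 14.80 in abdominal arrays (median 14.49) and over 14.37 to 14.82 in femoral arrays (median 14.57). The ranges overlapped, but within each of the 8 fetuses the omental value was lower than both others. Against femoral cells COL1A2 was 1.18-fold lower, with a difference of -0.24 ± 0.07 (limma, adjusted p = 0.0257). Against abdominal cells the difference was -0.19 ± 0.07, not called in limma (adjusted p = 0.145) and called with the fetus as a block (adjusted p = 0.0337). Its partner chain COL1A1 differed by 0.01 ± 0.06 and -0.05 ± 0.05, and a second COL1A2 probe by -0.13 and -0.12, none of them called. The femoral COL1A2 call was also lost without control_9087, control_8011, control_8009 or restricted_9073 (limma, adjusted p from 0.0571 to 0.0955). These probes lie at the bright end of the scale, with deposited signals of 21125 to 29324 for COL1A1 and 17816 to 30450 for COL1A2.

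COL3A1, which co-polymerises with collagen I in distensible tissue, ranged over log2 7.83 to 8.75 in omental, 6.996 to 8.55 in abdominal and 6.77 to 8.69 in femoral arrays. The groups overlapped widely, and yet it was higher in omental cells of 7 of 8 fetuses against abdominal and of 8 of 8 against femoral cells. Its differences of 0.47 ± 0.19 and 0.44 ± 0.20 were not called in limma (adjusted p = 0.206 and 0.205), and were called with the fetus as a block (adjusted p = 0.0274 and 0.0273). COL5A2, a chain of the collagen V that nucleates collagen I fibrils, went the other way. Its differences were -0.32 ± 0.17 and -0.42 ± 0.18 (limma, adjusted p = 0.361 and 0.16), also called with the block (adjusted p = 0.0477 and 0.0484). Its partner chain COL5A1 differed by -0.03 ± 0.09 and -0.11 ± 0.09, not called in either fit.

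COL11A1, a fibrillar collagen best known from cartilage, had a wide spread. Its log2 level ran from 6.96 to 9.96 in omental arrays (median 9.50), from 6.36 to 9.82 in abdominal arrays (median 8.29) and from 6.28 to 9.11 in femoral arrays (median 7.92). In 7 omental arrays it was at least 9.02, and the omental array of restricted_9075 was the low one at 6.96. The difference was 0.95 ± 0.50 against abdominal cells (limma, adjusted p = 0.357) and 1.30 ± 0.44 against femoral cells (adjusted p = 0.0759). The second difference was called with the fetus as a block (adjusted p = 0.0247), without restricted_9075 (1.61, limma, adjusted p = 0.0107), and by another COL11A1 probe (1.06, adjusted p = 0.0161). A further COL11A1 probe, detected on 9 arrays, read 0.04 and was not called (adjusted p = 0.864), so the probes disagree. COL5A3 and COL2A1 were dim, detected on 4 and 15 of the 24 arrays, and neither was called in limma, with or without the block. COL5A3 was called against femoral cells in the joint fit (-0.36, adjusted p = 0.0204) and not in limma over 16 arrays (adjusted p = 0.0898). Its probe was detected on 0 of 8 omental, 1 of 8 abdominal and 3 of 8 femoral arrays. It thus met the filter only through subcutaneous cells, which favours this direction, and no conclusion is drawn from the call. Of the cartilage markers, ACAN was lower in omental cells, at -1.15 ± 0.28 and -0.98 ± 0.29 (limma, adjusted p = 0.0254 and 0.0392), while the COL11A1 differences were above 0. COL24A1 and COL27A1 were not detected on any array, and COL11A2 was detected on 1.

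Of 10 fibril-associated collagen genes 6 were tested, and COL12A1 was called. This collagen binds the surface of collagen I fibrils and is abundant in tendon and fascia. Its log2 level ran from 11.06 to 11.70 in omental arrays (median 11.28), from 11.30 to 12.39 in abdominal arrays (median 11.76) and from 11.42 to 12.30 in femoral arrays (median 12.04). The ranges overlapped, while in each of the 8 fetuses the omental array was the lowest of the 3. Against femoral cells COL12A1 was 1.57-fold lower, with a difference of -0.65 ± 0.12 (limma, adjusted p = 0.00142). Against abdominal cells the difference was -0.45 ± 0.13, with an adjusted p of 0.0609 in limma and of 0.0329 with the fetus as a block. It was also called there without the abdominal array of restricted_9073 (limma, adjusted p = 0.046), an array singled out from these same data. A second COL12A1 probe, detected on 22 arrays, read -0.26 against femoral and -0.31 against abdominal cells, and was not called (limma, adjusted p = 0.168 and 0.196).

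COL14A1, a close relative of COL12A1, differed by -0.36 ± 0.13 against abdominal cells, not called in limma (adjusted p = 0.129) and called with the block (adjusted p = 0.0408). COL16A1, found near collagen VI and fibrillin, was bright and not called, with 0.27 ± 0.12 and 0.29 ± 0.12 (limma, adjusted p = 0.262 and 0.166). COL9A1, COL9A3 and COL20A1 were detected on 5, 6 and 8 arrays, and none was called. The probes of COL9A2, COL19A1, COL21A1 and COL22A1 were not detected on any array.

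Collagen VI filaments are built from the products of COL6A1, COL6A2 and COL6A3, and the 3 genes differed in what varied. COL6A1 fell into 2 levels that followed neither depot nor diet. The 3 arrays of control_9017 read log2 8.07, 7.61 and 7.87 in omental, abdominal and femoral cells, while the other 21 arrays read 10.72 to 12.11. The gap between the means was 3.80, or 13.9-fold, and the SD over all arrays was 1.32 with that fetus and 0.343 without it. On the deposited linear scale the probe read 213.4 to 285.6 in control_9017 and 1310 to 4430 elsewhere. COL6A1 has 1 probe on the array, so no second probe of it could be set beside this one.

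Within fetuses COL6A1 was nevertheless higher in omental cells of 8 of 8 in both comparisons. The differences were 0.46 ± 0.63 and 0.35 ± 0.59, not called in limma (adjusted p = 0.801 and 0.822), and both were called with the fetus as a block (adjusted p = 0.0242 and 0.00434). Without control_9017 the mean was 11.93 ± 0.10 (SD, n = 7) in omental, 11.47 ± 0.43 in abdominal and 11.56 ± 0.24 in femoral cells. The difference against femoral cells without that fetus was 0.37 (limma, adjusted p = 0.015).

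COL6A2 differed by 0.46 ± 0.15 against abdominal cells (limma, adjusted p = 0.105), and was called without the abdominal array of restricted_9073 (0.54 ± 0.15, adjusted p = 0.036). That array had the highest abdominal COL6A2 level (10.44), so the larger difference without it adds no support. By this probe COL6A2 was higher in omental cells of 6 of 8 fetuses in each comparison. Another COL6A2 probe read 0.28 against abdominal and 0.18 against femoral cells, not called (limma, adjusted p = 0.23 and 0.447). A further one read -0.12 and -0.07, also not called (limma, adjusted p = 0.353 and 0.687), so the COL6A2 probes disagree in direction. COL6A3 ranged over log2 9.18 to 12.18 across all arrays, with differences of 0.40 ± 0.32 and 0.03 ± 0.27, not called in either fit. COL6A5 was dim and did not vary beyond 5.25 to 5.67, and the probe of COL6A6 was not detected on any array.

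COL7A1, the anchoring fibril collagen of the skin's epidermal junction, varied widely between arrays, including those of the same fetus. It ranged over log2 5.03 to 7.06 in omental, 4.98 to 8.55 in abdominal and 5.36 to 7.73 in femoral arrays. Within fetuses its omental minus abdominal difference ran from -3.29 to 2.08. The mean difference was -1.12 ± 0.38 against femoral cells (limma, adjusted p = 0.0759). The transmembrane collagens were at or below detection: COL23A1 was detected on 3 arrays, COL25A1 on 1 and COL13A1 on none. The probe of COL28A1 was not detected on any array.

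Between abdominal and femoral cells no tested collagen gene passed the test. None of 26 was called by limma, with or without the fetus as a block, where 13 of all tested probes (0.0768%) were called and 30 (0.177%) with the block. The joint fit also called none (0.26% of all probes). At an unadjusted p under 0.05 there were 0 collagen genes in limma (4.18% of all probes), 3 with the block (8.06%) and 1 in the joint fit (6.83%). No collagen gene separated the arrays without overlap, as 0.112% of all probes did. Within fetuses COL6A3 was lower in abdominal than in femoral cells of 8 of 8, by -0.98 to -0.09, and its difference of -0.38 ± 0.34 was not called in limma (adjusted p = 1) or with the block (adjusted p = 0.26). COL12A1 was lower in 7 of 8, and its difference of -0.20 ± 0.14 was not called either (adjusted p = 0.422 with the block). The lowest p in limma belonged to COL5A3, detected on 1 abdominal and 3 femoral arrays, with -0.27 ± 0.13 and a 95% interval from -0.55 to 0.02. For COL4A1 the interval was -0.18 to 0.50 and for COL8A1 it was -0.82 to 0.14, so differences of the size seen against omental cells lay outside both intervals.

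The share of each gene's variation that lay between depots was high in the called genes, being computed from the same values as the tests. Depot accounted for 70.9% of the sum of squares of COL4A1 over 24 arrays, 70.3% of COL4A2, 67.9% of COL8A1, 53.1% of COL12A1 and 48.3% of COL18A1. Over the 26 genes the median share was 18.8% for depot, 29% for fetuses within a diet, 3.45% for diet and 31% for the remainder. The shares are not adjusted for the number of groups in a term, and there were 8 fetuses but only 3 depots. A term with more groups takes a larger share from noise alone. The higher median for fetuses therefore does not show that fetus outweighed depot. COL6A1 had the highest fetus share at 88.3%, followed by COL8A2 at 64.7% and COL6A3 at 61.9%. COL5A1 and COL15A1 had the highest diet shares, at 33.8% and 31.2%. These shares describe the 24 arrays and carry no test.

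**Figure D3:**
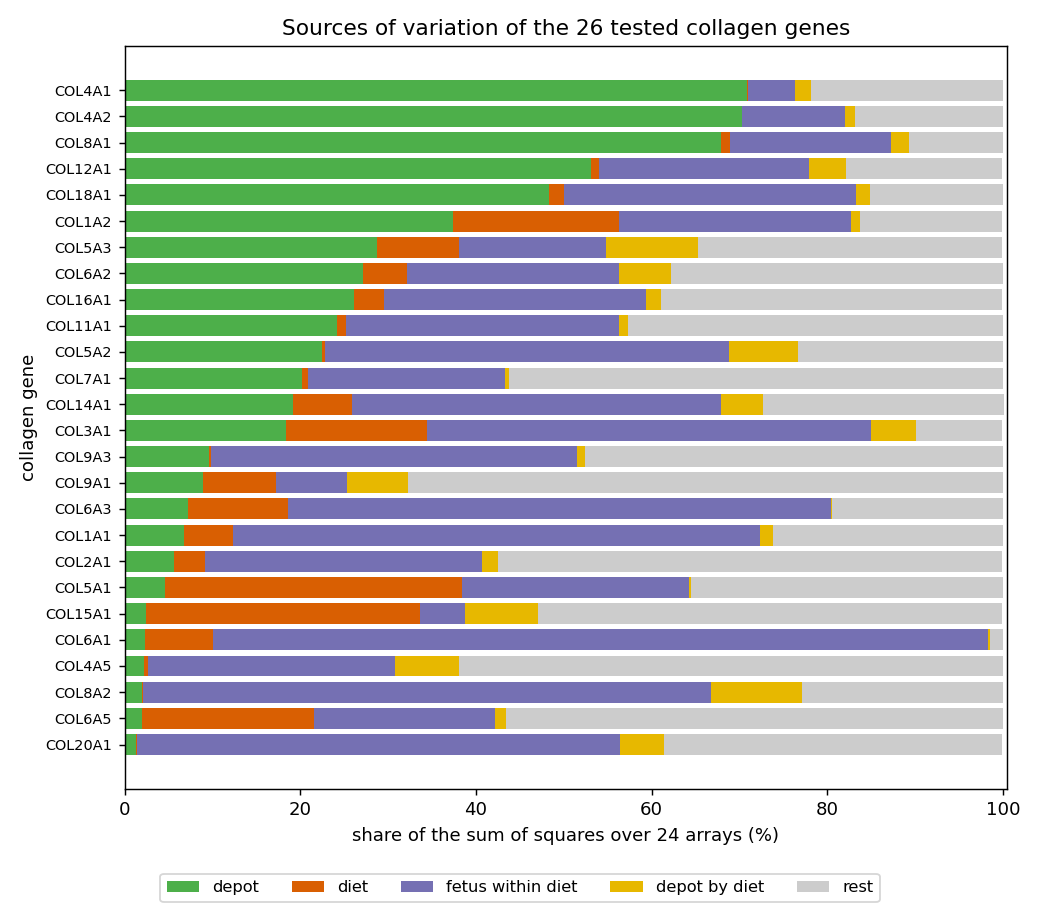
Share of the sum of squares over 24 arrays (horizontal axis, percent) that lay between depots, between diets, between fetuses of a diet, in the depot by diet term and in the remainder, for each of the 26 tested collagen genes (rows). The depot share is above 60% in COL4A1, COL4A2 and COL8A1, and the fetus share is largest in COL6A1 at 88.3%.

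No collagen gene passed the test for maternal diet. In limma 0 of 26 were called in omental, abdominal or femoral cells, and 0 over the means of the 3 depots of each fetus. Among all tested probes 0 were called in each depot (0%) and 1 over depot means (0.00591%). At an unadjusted p under 0.05 limma had 1 collagen gene in omental cells, 0 in abdominal cells, 2 in femoral cells and 2 over depot means, where 4.75%, 4.87%, 6.2% and 6.21% of all probes reached it. The joint fit of the 24 arrays had 1, 0, 2 and 4 (5.12%, 7.2%, 6.11% and 8.55% of all probes). This joint fit also called 0 collagen genes for diet, where it called 0% of all probes in omental and abdominal cells, 0.0236% in femoral cells and 0.13% over depots. With 4 fetuses a group the intervals were wide, with a median standard error of 0.17 to 0.21 over the tested collagen genes in a depot.

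COL15A1 had the smallest p of the collagen genes in omental cells. Its log2 level was 7.24, 7.53, 7.30 and 7.41 in the omental cells of control_9017, control_9087, control_8011 and control_8009. It was 7.97, 8.13, 8.90 and 7.83 in those of restricted_9085, restricted_2820, restricted_9075 and restricted_9073. Every restricted array lay above every control array, as 2.82% of all tested probes separated the diets there. The difference was 0.83 ± 0.21 with a 95% interval from 0.36 to 1.31 (limma, adjusted p = 0.88). In abdominal cells the groups overlapped, and the difference was 0.42 ± 0.31 (limma, adjusted p = 0.955). In femoral cells it was 0.23 ± 0.16 (limma, adjusted p = 0.863). No collagen gene separated the diets without overlap in abdominal or femoral cells, where 3.14% and 3.89% of all probes did.

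Averaged over the 3 depots, COL15A1 read 7.66, 7.67, 7.52 and 7.64 in the control fetuses and 8.27, 8.17, 8.10 and 7.92 in the restricted fetuses. The groups did not overlap, as was true of 3.59% of all tested probes. The difference was 0.49 ± 0.08 (limma, adjusted p = 0.366), and it missed the threshold. The diet difference of COL15A1 was larger in omental than in femoral cells by 0.61 ± 0.28, with an adjusted p of 1 in limma although its unadjusted p was under 0.05. No collagen gene was called for a depot by diet interaction in any pair of depots, where 0% of all probes were called. At an unadjusted p under 0.05 limma had 0 collagen genes for omental and abdominal, 1 for omental and femoral and 0 for abdominal and femoral cells (1.95%, 2.32% and 1.9% of all probes). With the fetus as a block these counts were 1, 3 and 2 (3.44%, 4.06% and 4.26% of all probes).

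**Figure D4:**
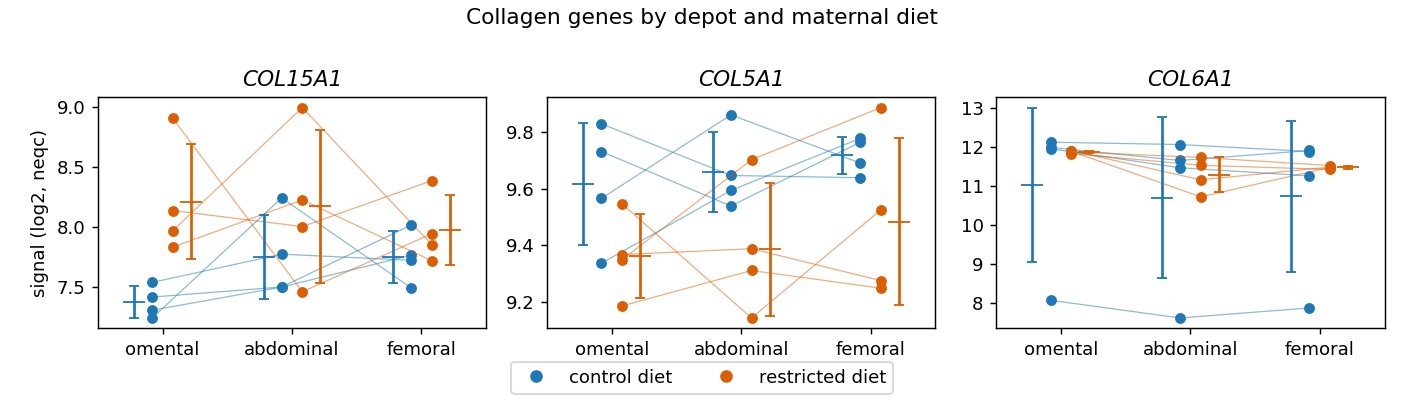
Log2 signal (vertical axes, with a separate range for each gene) of COL15A1, COL5A1 and COL6A1 by depot and maternal diet. Points are arrays, lines join the cells of 1 fetus, and bars show the mean and SD of 4 fetuses. COL15A1 separates the diets in omental cells and overlaps in the subcutaneous cells, and no depot by diet interaction was called. It is 1 of 26 collagen genes to do so in omental cells (3.85%), where 2.82% of all tested probes did. The 3 low COL6A1 points at 7.61 to 8.07 are all from control_9017.

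COL5A1 had a lower mean in restricted cells of all 3 depots, without a call in any. Its log2 level was 9.57, 9.34, 9.83 and 9.73 in control and 9.19, 9.55, 9.37 and 9.35 in restricted omental cells. The diets overlapped in every depot. The difference was -0.25 ± 0.13 in omental, -0.27 ± 0.13 in abdominal and -0.23 ± 0.14 in femoral cells (limma, adjusted p = 0.981, 0.955 and 0.845). Over depot means it was -0.25 ± 0.09 (limma, adjusted p = 0.8). COL6A3 also had a lower mean in restricted cells of each depot, at -0.45 ± 0.32, -0.43 ± 0.52 and -0.51 ± 0.40, with larger errors (limma, adjusted p = 0.981, 0.96 and 0.869). COL5A2, the partner chain of COL5A1, was not among the 5 collagen genes with the smallest p in any diet comparison. In omental cells its mean went the other way, at 11.42 ± 0.28 (SD, n = 4) in restricted and 11.18 ± 0.49 in control cells. It was lower in restricted abdominal (11.56 beside 11.68) and femoral cells (11.59 beside 11.85).

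COL1A2 also had a lower mean in restricted cells of each depot, at -0.10 ± 0.10, -0.16 ± 0.10 and -0.18 ± 0.10 in omental, abdominal and femoral cells (limma, adjusted p = 0.981, 0.955 and 0.827). Its partner chain COL1A1 differed by -0.07 ± 0.08, -0.02 ± 0.10 and -0.03 ± 0.08. In femoral cells the 2 smallest p belonged to COL3A1, with -0.69 ± 0.28 (limma, adjusted p = 0.783), and COL8A1, with 0.35 ± 0.15 (limma, adjusted p = 0.794). COL5A3 followed there with -0.43 ± 0.21, detected on 2 control arrays and 1 restricted array. In abdominal cells COL8A2 (-0.25 ± 0.16) and COL3A1 (-0.35 ± 0.29) were also among the 5 smallest p, and over depot means COL5A3 (-0.17 ± 0.09) and COL6A5 (0.11 ± 0.06) were.

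In omental cells COL6A3 (-0.45 ± 0.32), COL4A1 (-0.09 ± 0.09) and COL6A1 (0.84 ± 0.79) completed the 5. The COL6A1 difference rested on control_9017 alone and became -0.15 without it. The 95% interval of the COL4A1 diet difference in omental cells ran from -0.28 to 0.10.

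**Figure D5:**
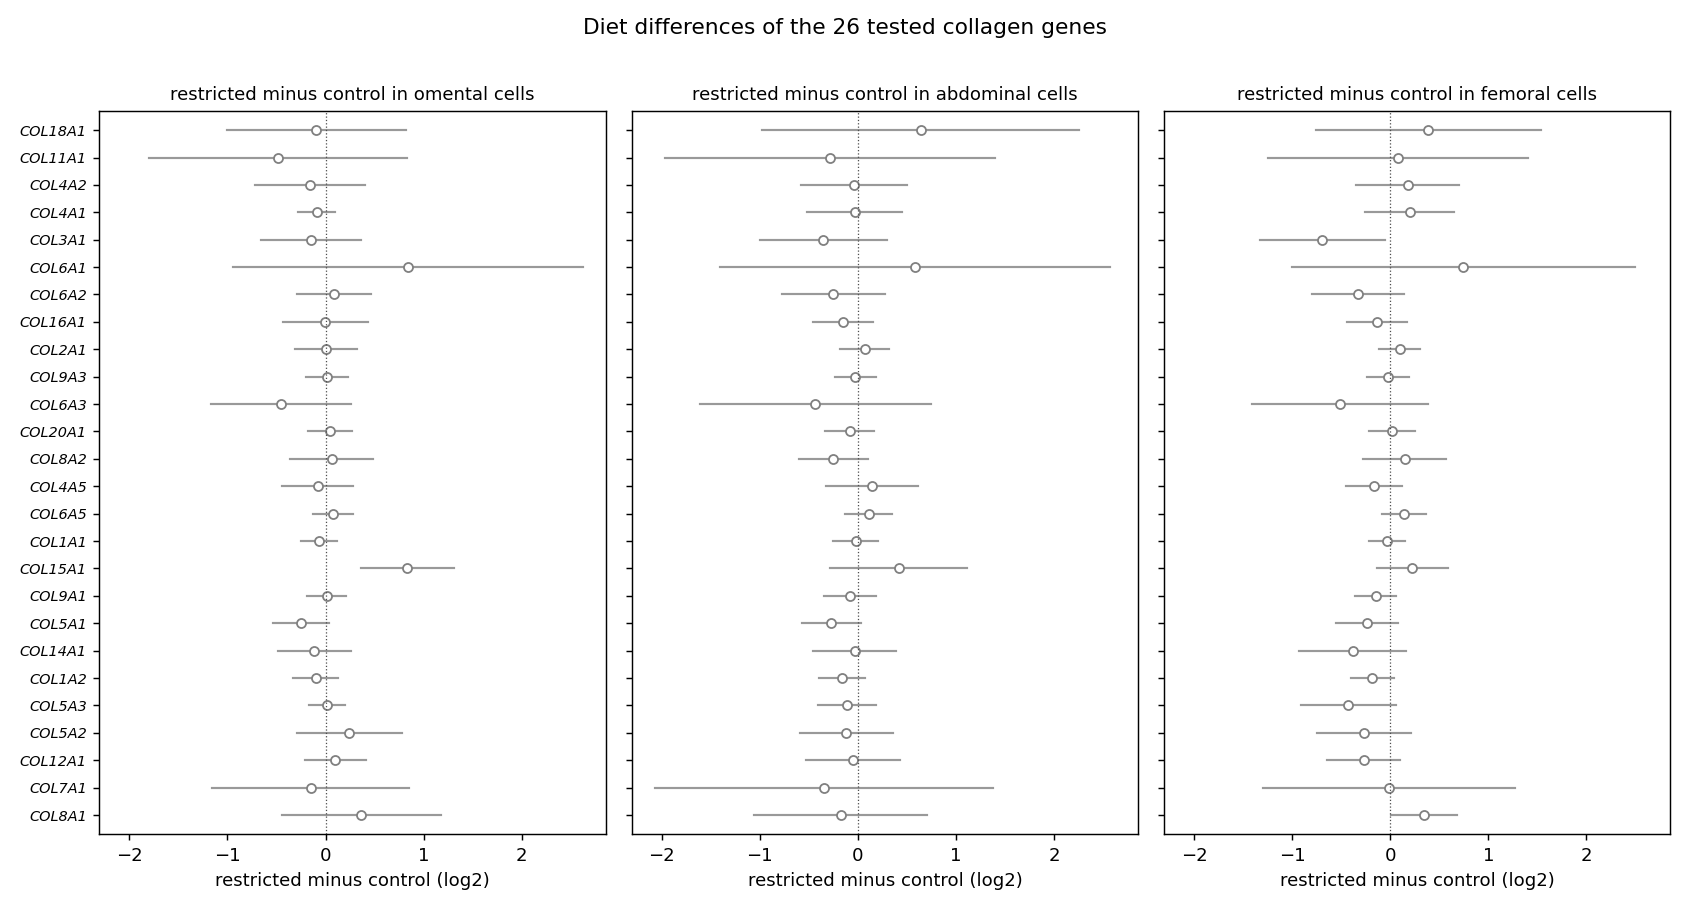
Difference in log2 signal between restricted and control cells (horizontal axis) for each of the 26 tested collagen genes (rows), with 95% confidence intervals from limma. No point is filled, since no gene reached an adjusted p under 0.05. The intervals are not adjusted for the number of genes. Those of COL15A1 in omental cells (0.36 to 1.31) and of COL3A1 and COL8A1 in femoral cells exclude 0. At an unadjusted p under 0.05 there were 1 collagen gene in omental, 0 in abdominal and 2 in femoral cells. Of all probes 4.75%, 4.87% and 6.2% reached it. The wide COL6A1 intervals come with the low values of control_9017.

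A few of the genes that modify, fold and export collagen also differed between depots. Of 15 tested genes for collagen hydroxylation, glycosylation and folding, 1 was higher and 1 lower in omental than in abdominal cells, and 1 was higher and 2 lower against femoral cells. Of all tested probes 2.49% were called higher and 2.13% lower against abdominal cells, and 5.33% and 5.6% against femoral cells. With the fetus as a block the counts were 1 higher and 4 lower, and 1 higher and 3 lower. The block called 5.07% of all probes higher and 4.55% lower against abdominal cells, and 7.54% and 8.08% against femoral cells. These shares also apply to the lists that follow. P3H2, a prolyl 3-hydroxylase that acts on collagen IV, was the higher one in both, by 0.68 ± 0.17 and 0.87 ± 0.15 (limma, adjusted p = 0.0296 and 0.000883). It was higher in omental cells of 7 of 8 fetuses against abdominal and of 8 of 8 against femoral cells. The collagen chaperone SERPINH1 was lower against abdominal cells, at -0.28 ± 0.08 (limma, adjusted p = 0.0462). Against femoral cells the lysyl hydroxylase PLOD3, at -0.38 ± 0.10, and the hydroxylase partner CRTAP, at -0.34 ± 0.10, were lower (limma, adjusted p = 0.0245 and 0.0416).

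Of 7 tested genes for procollagen export and processing, 1 was lower against abdominal and 3 against femoral cells, and none was higher in limma. In either direction limma called 4.62% and 10.9% of all probes in these comparisons, and the block 9.62% and 15.6%. With the fetus as a block ADAMTS2, which removes the amino end of procollagen, was called higher against femoral cells (0.22, adjusted p = 0.0416), and 2 genes were called lower against abdominal cells. PCOLCE2, which enhances removal of the procollagen carboxyl end, was lower, with differences of -0.94 ± 0.16 and -1.27 ± 0.13 (limma, adjusted p = 0.00246 and 7.97e-06). Its relative PCOLCE and the protease FURIN were lower against femoral cells, at -0.72 ± 0.19 and -0.33 ± 0.08 (limma, adjusted p = 0.0227 and 0.0166). Of 6 tested crosslinking genes only the transglutaminase TGM2 was called, higher by 1.01 ± 0.25 against femoral cells (limma, adjusted p = 0.012). With the fetus as a block 3 were also called lower against femoral cells: the peroxidase PXDN, which crosslinks collagen IV (-0.32, adjusted p = 0.00312), and the lysyl oxidases LOXL3 (-0.45, 0.00513) and LOX (-0.27, 0.0404).

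Among 15 tested small proteoglycans and fibril partners, 2 were higher and 4 lower against abdominal cells, and 3 were higher and 4 lower against femoral cells. In either direction limma called 4.62% and 10.9% of all probes there. THBS2, a matricellular regulator of fibril assembly, was higher by 1.03 ± 0.19 and 1.12 ± 0.15, and the fibril-spacing proteoglycan LUM by 0.71 ± 0.18 and 0.97 ± 0.12. FMOD, a relative of LUM, was higher against femoral cells by 0.68 ± 0.20. Lower in both comparisons were ABI3BP (-2.66 ± 0.33 and -2.89 ± 0.40) and DPT (-1.90 ± 0.30 and -2.09 ± 0.37), a dermal matrix protein that binds decorin. So were ECM2 (-0.97 ± 0.22 and -1.03 ± 0.19) and COMP (-0.94 ± 0.20 and -2.45 ± 0.21), a cartilage and tendon protein that binds collagen fibrils. All of these had an adjusted p under 0.05 in limma. COMP was also the only gene of the collagen lists called between the subcutaneous depots, at -1.51 ± 0.26 in abdominal minus femoral cells (limma, adjusted p = 0.0363).

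Of 10 tested genes of other basement membrane proteins, none was called higher in omental cells in limma without the block, 1 was lower against abdominal cells and 3 against femoral cells. Of all probes 2.13% and 5.6% were called lower in these comparisons. LAMA2, the laminin chain of muscle and mesenchymal basement membranes, was lower, at -3.45 ± 0.37 and -3.76 ± 0.32 (limma, adjusted p = 9.31e-05 and 7.8e-07), in 8 of 8 fetuses. LAMB2 and the proteoglycan HSPG2 were lower against femoral cells, at -0.46 ± 0.06 and -0.35 ± 0.09 (limma, adjusted p = 0.000106 and 0.0153). With the fetus as a block 2 of the 10 were called higher in each comparison, LAMA4 in both (adjusted p = 0.0225 and 0.0289), with NID2 against abdominal cells (0.0432) and SPARC against femoral cells (0.0108). Among 9 tested collagen receptors and uptake genes, ITGA2 and DDR1 were higher against femoral cells by 0.76 ± 0.12 and 0.63 ± 0.14, and ITGA1 was lower, at -0.66 ± 0.17 (limma, adjusted p = 0.000476, 0.00769 and 0.0157). Against abdominal cells none of the 9 was called in limma, and 1 was higher and 1 lower with the block. None of the genes of these 6 lists was called for diet.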

How the data were processed

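Cultured adipose-derived stem cells of 8 fetuses and 3 depots were read on 24 single-channel bead arrays. Per the file headers, the authors deposited an average intensity and a detection p-value for every probe on each array; from the values, the intensities were background-subtracted and not normalised between arrays. The deposited series matrix held quantile-normalised intensity values of the same arrays (rank correlation 1 with the matching column) and served as an alternative. Scanner software is not given in the sources used here. No genome or sequence table was used here.

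Signals were normalised with neqc (offset 16) in limma 3.58.1 (R 4.3.3, statmod 1.5.0) and plotted with matplotlib 3.10.9 under Python 3.11.15. Depot pairs were fitted over 16 arrays with diet in the model, diet within 8 arrays of a depot or 8 fetus means, and interactions over 16 arrays. Fits used lmFit and eBayes, two-sided, adjusted over 16933 probes detected (p under 0.05) on at least 4 arrays. Pairing comes from the fetus numbers in the labels: deviations of same-fetus arrays correlated at 0.28 to 0.673, each higher than with any other fetus. The scripts were tested on simulated data. P-values of the diet comparisons cover the spread between fetuses. Depot and interaction fits without the block treat arrays of the same fetus as independent, and those with the block test differences within fetuses. The precision of all of them is limited by the number of arrays.

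Of 48803 probes 28098 had 1 symbol, 13 several and 20692 none in the platform annotation, which can be old. How well the human probes match baboon transcripts was not assessed, and levels are compared only within a probe. Collagen genes called in limma without the block are given as ranges and medians by depot, with single arrays plotted. In each diet comparison the 5 with the smallest p are named. Genes of the collagen-related lists called between depots in limma without the block are named. The collagen genes and all lists were chosen with earlier results of these data known. Alternatives covered scaling, background, the deposited matrix, the filter, offset, probe choice, sex, single diets, blocks and leaving out each fetus. Leaving out the abdominal array of restricted_9073 was a further alternative, and that array was singled out from these same data. A depot by diet term was added after seeing the data.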

Additional observations from a re-analysis of the deposited data

Results flagged for a closer look

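Of 156 combinations of a tested collagen gene and a group of 4 arrays, 6 held an array whose gap to the nearest of the other 3 passed Dixon's 95% criterion, which chance passes in about 1 of 20 groups. Of these, 3 are COL6A1 in control_9017, the male control fetus, at log2 8.067 in omental cells (the other 3 at 11.95 to 12.11), 7.614 in abdominal cells (11.46 to 12.05) and 7.871 in femoral cells (11.25 to 11.9). The omental array of the same fetus was high for COL5A2, at 11.91 beside 10.91 to 10.99. COL6A3 was low in the abdominal array of restricted_9085, the male restricted fetus, at 9.183 beside 10.89 to 11.16. COL7A1 was low in the femoral array of control_8011, at 5.361 beside 7.346 to 7.577. Causes of these values were not tested.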

How the results depend on the processing

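The count of 4 collagen genes between omental and abdominal cells became 10 with the fetus as a replicate block (1629 probes called in all, beside 782), 7 in a joint fit of the 24 arrays with fetus as a random effect (1726), 2 without the filter on dim probes (394), 2 in female fetuses alone (228) and 0 in restricted fetuses alone (0). Leaving out 1 fetus gave 2 to 5 there, with 2 without control_9087, and 346 to 926 probes in all; without the abdominal array of restricted_9073 alone it was 6. The 6 genes between omental and femoral cells became 10 with the replicate block (2645 probes beside 1852) and 2 in restricted fetuses alone (190), and were 5 to 7 without 1 fetus. In female fetuses alone COL4A2 (adjusted p = 0.0582) and COL18A1 (0.119) lost their calls against abdominal cells and COL1A2 (0.0596) against femoral cells; without the filter COL8A1 (0.054) and COL18A1 (0.0863) did, in control fetuses alone COL4A2 (0.06), and with the mean of all probes COL1A2 (0.0948). In restricted fetuses alone the femoral calls left were COL8A1 and, newly, COL6A1 (0.042). Counts of 0 between abdominal and femoral cells, for diet and for interactions stayed 0 under each alternative run for them. Among single genes 808 values kept direction and call, 26 lost a call, 24 gained one and 2 changed sign: the omental diet difference of COL6A1 became -0.1562 in female fetuses alone and -0.1469 without control_9017, within -0.1469 to 1.202 over all fetuses left out. Causes of these shifts were not tested, and the subsets also held fewer arrays. The replicate block for diet could not be fitted, since each fetus had 1 diet.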
